A study of Mus musculus with 6 samples.

Results

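The proteasome genes of the mouse left ventricle, the chamber that pumps blood to the body, were followed in a study of alcoholic cardiomyopathy. Members were all genes whose symbol is Psma, Psmb, Psmc, Psmd, Psme or Psmf with a number, or Psmg1 to Psmg4, leaving out the 3 interferon-inducible core subunits Psmb8, Psmb9 and Psmb10. The rule found 45 genes of 55487 in the files, and it used no measured value. Of these, 44 had enough counts to be tested among 15727 tested genes. The tissue was bulk RNA from C57BL/6 wild-type males, 8 weeks old. The ET group, with 3 libraries, had a 5% ethanol diet for 10 days and then 1 gavage of ethanol. The CONT group, with 3 libraries, had an isocaloric diet for the same time and 1 gavage of maltose-dextrin, and both were sampled 9 h after the gavage. The labels do not say whether each library came from a separate mouse, so the p-values cover only the spread among these libraries, and that spread may be technical. The model is a short feeding with 1 binge, and no measure of heart function was used here.

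The proteasome is the large protease that breaks down proteins tagged with ubiquitin. Its 20S core is a barrel of outer alpha rings, which gate the entrance, and inner beta rings, which carry the cutting sites. The 19S regulatory particle caps the barrel, holding ubiquitin receptors, a deubiquitinase and a ring of ATPases that unfold the substrate and thread it in. Each core particle holds its subunits in equal numbers, and dedicated chaperones assemble it. In heart muscle, where cells are long-lived and contractile proteins are under constant strain, the proteasome is a main route of sarcomere protein turnover. When its activity is short, the transcription factor Nrf1 (gene Nfe2l1) can raise many proteasome genes together through antioxidant response elements in their promoters.

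That element was searched in RefSeq promoter windows (GRCm38.p6, 250 bases before to 50 after each start site), as TGACNNNGC on both strands, because it is the sequence that many members are known to share. A window was given for 37 of the 45 members, in 40 windows, and 6 of the 37 genes held the element. They were Psmb5, Psmb6, Psmc6, Psmd12, Psmd9 and Psme4. The share of member windows was 15.0% and that of all 32851 windows was 12.4%. The 4 sequences below are the upstream parts of these windows, outside annotated exons, for a pair of core genes and a pair of 19S genes, and the capitals mark the element on either strand.
Psmb5: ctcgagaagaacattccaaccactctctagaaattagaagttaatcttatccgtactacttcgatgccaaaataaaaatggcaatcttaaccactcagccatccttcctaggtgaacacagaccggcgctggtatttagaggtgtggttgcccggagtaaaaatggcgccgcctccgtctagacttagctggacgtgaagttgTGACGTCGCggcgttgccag
Psmb6: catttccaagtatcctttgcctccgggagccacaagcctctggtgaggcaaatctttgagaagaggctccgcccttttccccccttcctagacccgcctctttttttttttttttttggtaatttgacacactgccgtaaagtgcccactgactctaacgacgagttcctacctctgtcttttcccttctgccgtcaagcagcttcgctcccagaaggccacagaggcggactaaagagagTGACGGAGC
Psmc6: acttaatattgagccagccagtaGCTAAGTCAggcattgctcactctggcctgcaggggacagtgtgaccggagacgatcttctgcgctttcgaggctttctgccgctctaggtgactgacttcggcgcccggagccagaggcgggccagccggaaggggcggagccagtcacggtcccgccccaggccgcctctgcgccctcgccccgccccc
Psmd12: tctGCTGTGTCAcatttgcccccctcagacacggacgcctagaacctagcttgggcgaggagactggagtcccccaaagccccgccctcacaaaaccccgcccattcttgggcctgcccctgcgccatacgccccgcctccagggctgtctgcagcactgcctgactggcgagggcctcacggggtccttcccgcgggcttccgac
The Psmb5 stretch lies at chr14:54618023-54618245 on the minus strand. The Psmb6 stretch lies at chr11:70525107-70525356 on the plus strand. Those of Psmc6 (chr14:45329574-45329787) and Psmd12 (chr11:107479278-107479483) are on the plus strand as well. The first base of the element was at -47 in Psmb5, -9 in Psmb6, -227 in Psmc6 and -247 in Psmd12, counted from the RefSeq start site. The fitted log2 fold change of ET over CONT was -0.36 ± 0.16 (SE) for Psmb5 and -0.25 ± 0.14 for Psmb6. It was 0.09 ± 0.17 for Psmc6, 0.06 ± 0.23 for Psmd12, 0.10 ± 0.14 for Psmd9 and 0.42 ± 0.40 for Psme4. None of the 6 passed the test, and the part of the element in these values was not tested.

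The libraries held 28838386 to 37762233 expected counts. Libraries of a group were not copies of each other, since their counts differed beyond sampling noise (18.7 to 192 as chi-square per gene). Markers of the labelled tissue were present: all 10 cardiomyocyte markers were tested and none was at 0, with a summed level of 56820 to 69210 CPM (counts scaled to a common library total) in 5 libraries and 42900 in ET 1. In that library fibroblast markers summed to 4389 CPM (1693 to 2038 in the others), macrophage markers to 606 (263 to 278) and mesothelial markers to 177 (7.41 to 29.7), with none at 0. Between the groups, 8 of the 10 cardiomyocyte markers had a fitted log2 fold change of ET over CONT below 0 (48.1% of genes, median -0.33). Above 0 were 9 of 9 fibroblast, 9 of 9 macrophage and 5 of 6 mesothelial markers (51.9% of genes, medians 0.55, 0.40 and 2.69). None of these markers passed edgeR's test. Atrial markers summed to 9387 CPM in ET 1 and 1852 in CONT 3, against 164 to 469 in the other 4. The libraries were clustered by the effective length of 9992 genes, which is the ratio of expected counts to FPKM, and cut into 2 sets. The number of sets was imposed and not found. The sets were CONT 1, CONT 2 and ET 1 against CONT 3, ET 2 and ET 3. Differences within each set (ET minus CONT in log2 CPM) are given for the members named with their values and for the immunoproteasome genes, since the sets cut across the groups unequally. ET 1 is the only ET library of set 1, and CONT 3 is the only CONT library of set 2.

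No proteasome gene was called different between ET and CONT. In the quasi-likelihood test of edgeR, with p-values adjusted over all genes by Benjamini and Hochberg, 0 of 44 members passed an adjusted p of 0.05, as did 0 of 15727 genes (0.0%). The members' adjusted p ran from 0.515 upward, and the lowest of any gene was 0.427. At an unadjusted p under 0.05 there were 2 members, Psme1 and Psme2, both lower in ET, where 8.65% of all genes lay (4.46% lower in ET). DESeq2 called 0 members and 1.17% of genes, with the same 2 at an unadjusted p under 0.05 (10.4% of genes). The fitted log2 fold change was below 0 for 26 members and above 0 for 18, where 48.1% of all genes were below and 51.9% above. Its median was -0.04 over the members and 0.01 over all genes. Groups were without overlap in CPM for 6 members lower in ET (8.36% of genes) and 0 members higher in ET (6.89% of genes). The 6 were Psma1, Psmb2, Psmb5, Psmb6, Psme1 and Psme2. In bulk tissue fewer cells of a type and less RNA per cell cannot be told apart.

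**Figure D1:**
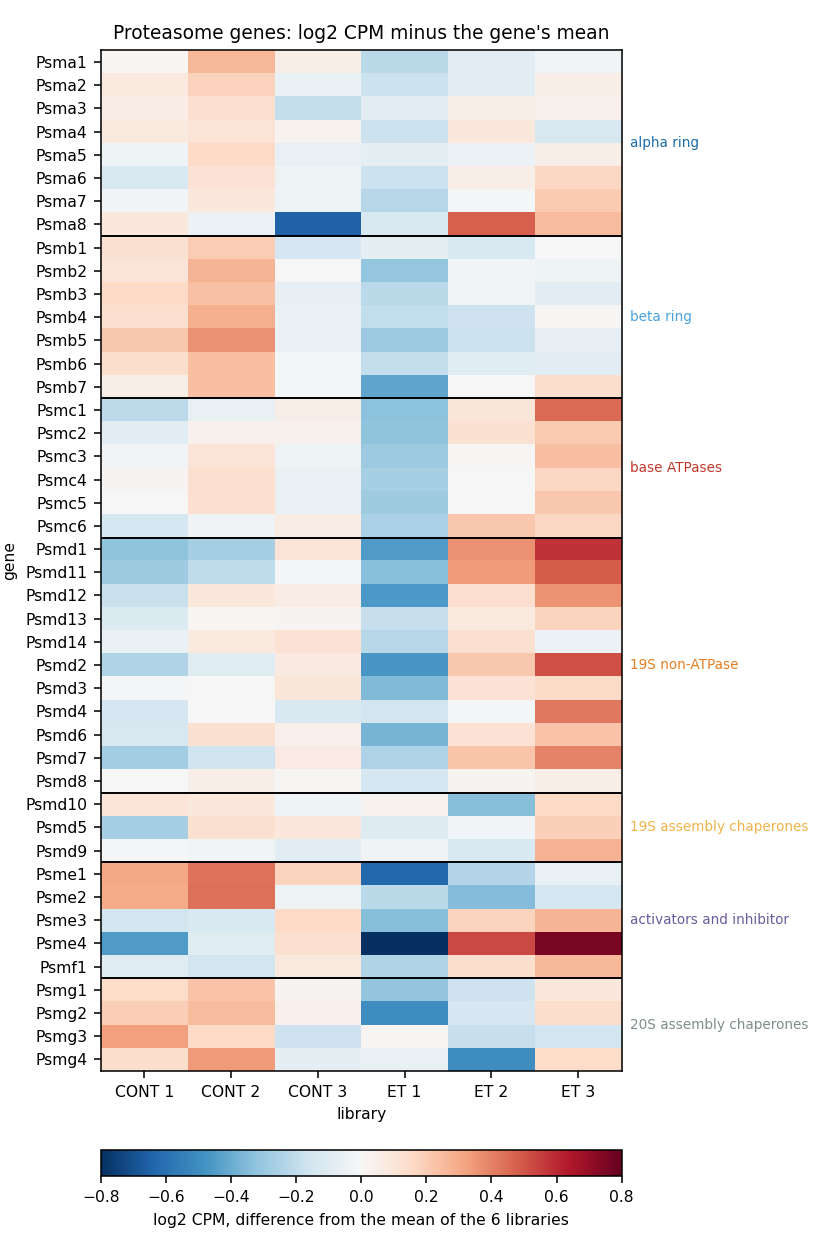
Each row is 1 of the 44 tested proteasome genes and each column 1 library, and the colour gives log2 CPM after the mean of that gene was subtracted. ET 1 was the lowest library for 34 genes, while the highest was CONT 2 for 12 of 14 core genes and ET 3 for 15 of 17 genes of the 19S particle.

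The subunit genes were expressed at different levels per length, although the particle needs its subunits in equal numbers. Levels per length, in TPM (transcripts scaled to a fixed sum per library, mean of the 6 libraries), ran from 23.3 for Psma5 to 152 for Psmb6 among the 14 core genes, a 6.49-fold range. Among the 17 genes of the 19S particle they ran from 20.9 for Psmd14, the deubiquitinase that removes ubiquitin chains, to 134 for Psmc3, a base ATPase. The assembly chaperones of both particles were lower, from 4.30 TPM for Psmd10 to 13.5 TPM for Psmg2. The order of neighbouring genes was often within the spread of the libraries: in CONT, Psmb4 was at 104 ± 2.92 TPM (SD, n = 3) and Psme1 at 100.4 ± 4.07, while Psmb6 stood above both at 154 ± 2.17. Tissue-restricted subunits were near or at 0. Psmb11, the catalytic subunit of thymus epithelium, was listed at 0 in all 6 libraries. A count of 0 allows up to 3 counts, which is 0.0794 to 0.104 CPM per library and 0.0151 CPM over all 6, for counting error only. Psma8, the alpha subunit of developing sperm, passed the filter with 0.296 to 0.647 CPM and is left out of the core below.

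The beta ring holds the cutting sites, and all 7 of its tested genes had lower fitted levels in ET (median log2 fold change -0.24, range -0.36 to -0.13), whereas per length Psmb1 and Psmb7 had mean TPM values of 55.9 and 79.1 in ET against 54.9 and 79.0 in CONT. None passed, and the CPM ranges did not overlap for 3 of the 7 (8.36% of genes lower without overlap). By TPM that held for 1 of them, Psmb5 (3.22% of genes). Psmb5, the chymotrypsin-like site and the target of proteasome inhibitor drugs, was at 80.8, 89.9 and 67.2 CPM in CONT 1, 2 and 3 and at 57.1, 62.0 and 66.7 in ET 1, 2 and 3. The 3 ET libraries lay below the 3 CONT libraries, but ET 3 and CONT 3 nearly met. The means were 79.3 ± 11.4 and 61.9 ± 4.79 CPM (SD, n = 3), a log2 fold change of -0.36 ± 0.16 (SE), with an adjusted p of 0.574 by edgeR. Within library set 1 the difference was -0.58 and within set 2 it was -0.06, and on log2(TPM + 1) the fold change of Psmb5 was -0.16. Psmb5 lies at chr14:54614119-54618022 (GRCm38, minus strand), next to Psmb11. Of its 75-base stretches 36.8% also occur in other genes, mainly the pseudogene Gm3375, which had mean expected counts of 35.3 in CONT and 15.8 in ET, so that the split of reads between them is uncertain.

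Psmb6, the caspase-like site and the highest member per length, was at 118, 127 and 106 CPM in CONT and at 94.3, 100.7 and 101.5 in ET. These ranges did not overlap either, and the ET libraries were close to each other. Psmb6 had a log2 fold change of -0.25 ± 0.14 (adjusted p 0.620 by edgeR), with -0.38 in set 1 and -0.07 in set 2. On log2(TPM + 1) it was -0.053, and in TPM the groups overlapped. Psmb7, the trypsin-like site, was at 88.2, 100.7 and 84.7 CPM in CONT and at 63.6, 85.2 and 93.8 in ET. Here only ET 1 stood below the CONT libraries, and ET 3 was above both CONT 1 and CONT 3. Its fitted difference was -0.17 ± 0.19 on the log2 scale and -0.012 without ET 1, and the sets differed in sign (-0.57 and 0.08). Of the exon bases of Psmb7, 11.8% overlap Nek6 on the opposite strand. The structural beta genes Psmb1, Psmb2, Psmb3 and Psmb4 were at -0.13 to -0.25.

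The alpha ring was closer to no difference. Without Psma8, 6 of 7 genes had a fold change below 0 on the CPM scale, whereas only Psma1 had a lower mean TPM in ET, and for the 8 genes the median was -0.03. Psma1 was at 60.2, 71.6 and 61.6 CPM in CONT and at 51.3, 56.1 and 58.7 in ET. All 3 ET libraries were below the CONT libraries. On the log2 scale the difference of Psma1 was -0.22 ± 0.14 (adjusted p 0.640 by edgeR), with -0.36 in set 1 and -0.10 in set 2. On log2(TPM + 1) it was -0.026, and in TPM the groups overlapped. Psma2 was at 60.4, 64.9 and 55.1 CPM in CONT and at 50.6, 53.8 and 59.2 in ET, where ET 3 exceeded CONT 3. Its log2 fold change was -0.14 ± 0.14, with -0.31 in set 1 and 0.03 in set 2. It was -0.04 by library totals and 0.0026 on log2(TPM + 1), so that its sign was not the same in counts and per length. Psma3 and Psma7, other subunits of this ring, were at -0.01 each. The 14 core genes had a median of -0.16, and 13 of the 14 were below 0.

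The fitted values of the 19S particle lay on both sides of 0. Its 17 genes had a median log2 fold change of 0.06, with 11 above 0 and 6 below, and no ranges without overlap in either direction. The 6 base ATPases, the motor ring, were at -0.05 to 0.18 (median 0.01). Psmc1 was at 72.4, 80.1 and 86.4 CPM in CONT and at 66.7, 89.3 and 115 in ET. Its ET libraries held both the lowest and the highest value of the 6. Psmc1 had a log2 fold change of 0.18 ± 0.22, with -0.19 in set 1 and 0.23 in set 2. It was -0.03 without ET 3 and 0.37 without ET 1. Psmc6 was at 53.0, 57.2 and 60.9 CPM in CONT and at 48.8, 67.8 and 65.4 in ET, a log2 fold change of 0.09 ± 0.17, with -0.17 in set 1 and 0.13 in set 2. Over the alternatives Psmc6 ran from -0.022 in a fit with a term for the library sets to 0.34 on log2(TPM + 0.1), with 0.24 without ET 1.

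The non-ATPase subunits, which form the lid and the ubiquitin receptors, were at -0.09 to 0.38 (11 genes, 8 above 0, median 0.06). Psmd11, a lid subunit whose level sets how much 26S proteasome is assembled in stem cells, was at 42.7, 45.0 and 51.4 CPM in CONT and at 41.2, 65.8 and 72.6 in ET. ET 2 and ET 3 were above every CONT library, and ET 1 was below every one. The log2 fold change was 0.37 ± 0.23 (adjusted p 0.632 by edgeR), with -0.09 in set 1 and 0.43 in set 2. It was 0.17 with a term for the library sets and 0.20 without ET 3. Psmd1, the large scaffold subunit of the base, showed the same order, at 55.9, 58.1 and 75.1 CPM in CONT and at 51.1, 90.0 and 105 in ET. Its log2 fold change was 0.38 ± 0.28, with -0.16 in set 1 and 0.37 in set 2. It was 0.11 with a term for the library sets, 0.16 without ET 3 and 0.64 without ET 1. Psmd14 was the lowest of the group, at -0.09 ± 0.14. Without ET 1, DESeq2 called Psmd11 (0.59, adjusted p 0.0200), whereas edgeR did not (adjusted p 0.264). With CONT 3 and ET 1 both left out, edgeR called Psmd11 (0.68, adjusted p 0.0371) and Psmd1 (0.79, adjusted p 0.0324), in a fit that called 5.27% of all genes and in which library set and group coincide and cannot be told apart.

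**Figure D2:**
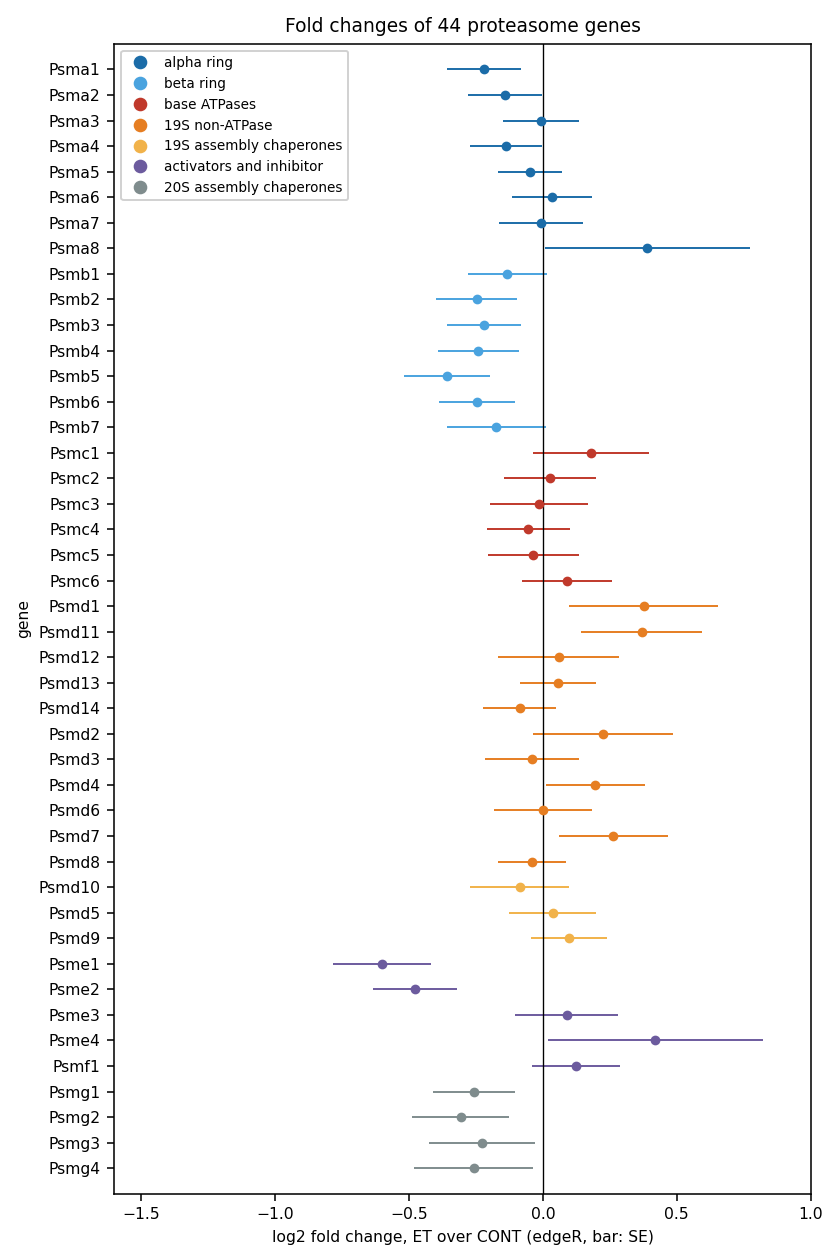
Points are fitted log2 fold changes of ET over CONT for the 44 tested members, bars are 1 SE, and colours give the role in the proteasome. On this CPM scale all 7 beta ring genes (5 in mean TPM) and all 4 core chaperones lie below 0, the 17 genes of the 19S particle spread from -0.09 to 0.38, and Psme1 is the lowest at -0.60.

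The contrast between core and 19S genes was then read in each library, as the mean log2 level of the 17 genes of the 19S particle minus that of the 14 core genes, each as a difference from the gene's own mean. It was -0.20, -0.21 and 0.07 in CONT 1, 2 and 3 and -0.10, 0.17 and 0.26 in ET 1, 2 and 3. The groups overlapped, since CONT 3 was above ET 1. The library sets did not overlap, at -0.21 to -0.10 in set 1 and 0.07 to 0.26 in set 2. Within each set the ET libraries were the higher ones. This difference needs no scaling factor, because a factor moves both kinds of gene alike. The gap between the median fold changes of the 19S and core genes was 0.22. Other scaling factors could hardly move it, so their values (0.20 to 0.21) are no separate check. Without single libraries it ran from 0.14 (without ET 3) to 0.31 (without CONT 3) by edgeR. It was 0.36 with CONT 3 and ET 1 both left out, where library set and group coincide. The smallest gap, 0.11, was in the fit with a term for the library sets. In that fit the 19S median was -0.07 and the core median -0.18.

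**Figure D3:**
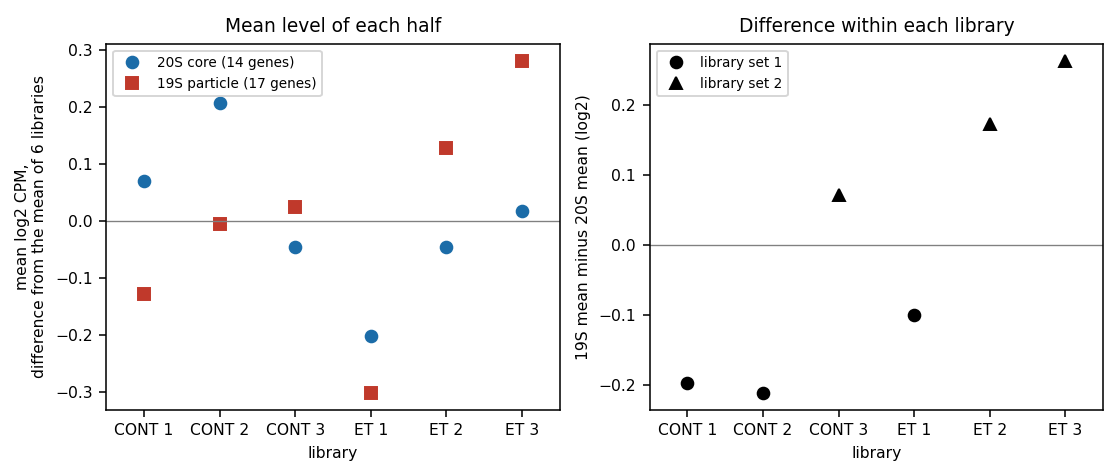
The left panel gives the mean log2 CPM of the 14 core genes and the 17 genes of the 19S particle in each library, after subtracting each gene's mean, and the right panel gives 19S minus core. The difference is below 0 in CONT 1, CONT 2 and ET 1 and above 0 in CONT 3, ET 2 and ET 3, the 2 library sets.

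Gene length moved with this contrast. The core genes are short, with a median effective length of 890 bases against 1321 for the 19S particle. Over the 44 members Spearman's rho between effective length and log2 fold change was 0.71, and over 13238 genes with a mean of at least 1 CPM it was 0.29. These are descriptions across genes, which share the same 6 libraries and are not independent. Over the same 13238 genes the median fold change was -0.18 below 800 bases, -0.10 from 800 to 1200, -0.03 from 1200 to 1600, 0.01 from 1600 to 2400 and 0.11 above 2400. The members' medians in these classes were -0.25, -0.16, -0.01, 0.09 and 0.40. Among genes of 800 to 1600 bases, 10 core genes had a median of -0.14 with 9 below 0, and 12 genes of the 19S particle had a median of 0.03 with 5 below 0. The lengths were not matched within this range. The class of 800 to 1200 bases held 9 of these core genes and 3 of the 19S genes. That of 1200 to 1600 bases held 1 and 9. Whether length has a part in the difference was not tested.

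**Figure D4:**
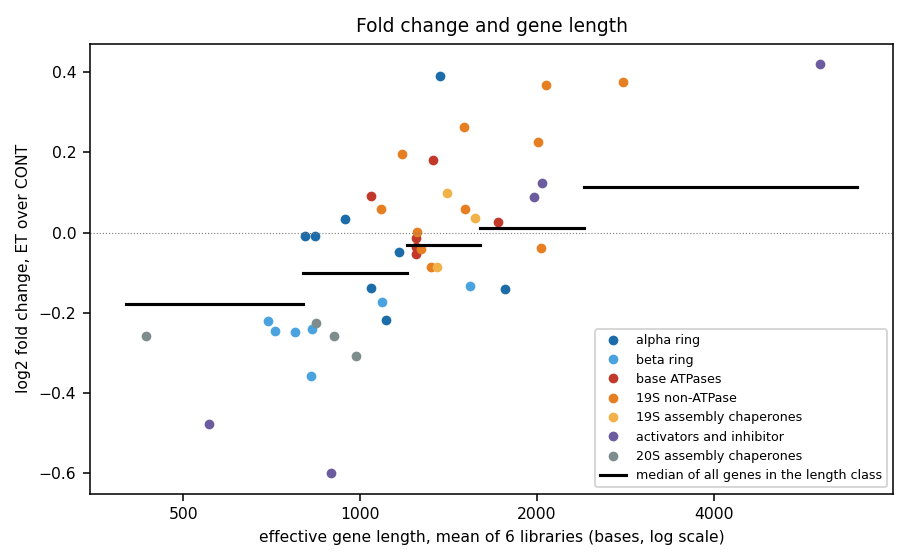
Points are the 44 tested members, with the effective length in bases (log scale) against the log2 fold change of ET over CONT. Black bars are medians in 5 length classes over all genes with a mean of at least 1 CPM. The members run from low at the short end, with Psme2 at 553 bases, to 0.42 for Psme4 at 6053 bases, and the class medians go from -0.18 to 0.11.

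Many members shared their lowest and their highest library. ET 1 was the lowest library for 34 of 44 members (24.3% of all genes), and CONT 2 was the highest for 17 (16.1% of genes) and ET 3 for 23 (23.8% of genes). With TMM factors, the scaling used here, the members' median difference was -0.28 within set 1, where ET 1 is the sole ET library. Within set 2, where CONT 3 is the sole CONT library, it was 0.08. Relative to each gene's mean, the members' median log2 CPM in ET 1 was -0.23. Over all genes with a mean of at least 1 CPM it was -0.018. The position of ET 1 rests on its scaling factor of 1.19, the highest of the 6. By library totals alone ET 1 was the lowest for 4 members and CONT 1 for 15, and by TPM ET 1 was the lowest for 3 and CONT 1 for 21. The median of all genes was 0.12 by library totals and 0.15 on log2(TPM + 1). Beside those shifts, the core median was -0.06 by library totals, with 10 of 14 genes below 0, and 0.00 by TPM, with 7 of 14 below 0. The 19S median was then 0.13 and 0.19, with 17 of 17 genes above 0 on both scales.

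Single libraries and the scaling moved these counts of members. Without ET 1, 7 members were at an unadjusted p under 0.05 (16.3% of genes), against 0 without CONT 2 (3.56%) and 4 without ET 3 (9.3%). Members lower in ET without overlap numbered 13 without CONT 3 (18.2% of genes), 10 without ET 3 (14.4%) and 3 by TPM (3.22%). Those higher numbered 16 without ET 1 (18.5% of genes), 5 by library totals (10.1%) and 7 by TPM (13.0%). The 3 lower by TPM were Psmb5, Psme1 and Psmg1, and the 7 higher were Psma3, Psma6, Psmc4, Psmd4, Psmd11, Psmd13 and Psmf1. Psmb5 and Psme1 are thus the members whose groups did not overlap either in CPM with TMM factors or in TPM. By library totals alone, Psmb5 in ET 1 was slightly above CONT 3, while the groups of Psme1 stayed apart.

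Among the activators, both genes of PA28 alpha and beta (Psme1 and Psme2) had the lowest p of all members, and both were lower in the ET libraries. This ring caps the core in place of the 19S particle, opens it for peptides and is inducible by interferon gamma. Psme1 was at 95.3, 104 and 86.8 CPM in CONT and at 49.8, 65.2 and 73.6 in ET. Every ET library was below every CONT library, with ET 1 the lowest. The means were 95.3 ± 8.50 and 62.9 ± 12.1 CPM (SD, n = 3), 34.0% lower in ET. The log2 fold change was -0.60 ± 0.18, with an unadjusted p of 0.0135 and an adjusted p of 0.515 by edgeR.

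The lower level of Psme1 was present within both library sets, at -0.999 in set 1 and -0.33 in set 2. Each of these values rests on a single library in 1 group, ET 1 in set 1 and CONT 3 in set 2. It was also present per length: TPM values were 95.7, 102 and 103 in CONT and 73.3, 76.6 and 75.9 in ET. On that scale the ET libraries stood close together and ET 1 no longer stood apart. Leaving out each library in turn gave -0.73 to -0.44. DESeq2 called Psme1 only when ET 3 was left out (-0.72, adjusted p 0.0465, with 1.31% of genes called), and the range of its adjusted p over all alternatives was 0.0465 to 1.0.

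Psme2 was at 38.2, 42.2 and 30.2 CPM in CONT and at 26.7, 24.5 and 28.2 in ET. The groups did not overlap, and CONT 3 was nearest to the ET libraries. The means were 36.9 ± 6.10 and 26.5 ± 1.89 CPM, a log2 fold change of -0.48 ± 0.16 (unadjusted p 0.0187, adjusted p 0.515 by edgeR). It was -0.59 in set 1 and -0.20 in set 2. On the TPM scale it was -0.22 ± 0.14, less than the CPM value by over 1.5 times. DESeq2 called it only without CONT 3 (-0.58, adjusted p 0.0494, with 2.86% of genes called). Both genes lie close together on chromosome 14, Psme1 at chr14:55578123-55581529 on the plus strand and Psme2 at chr14:55587441-55591113 on the minus strand (GRCm38). Psme2 shares 22.9% of its 75-base stretches with Psme2b, whose mean expected counts were 62.7 in CONT and 39.8 in ET, so that its reads are partly ambiguous, while Psme1 shares 1.31%.

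The fitted values of the other activators and the inhibitor were above 0. Psme3, the nuclear PA28 gamma, was at 0.09 ± 0.19, and Psmf1, the inhibitor PI31, was at 0.12 ± 0.16. Psme4, the PA200 activator, was chosen after its values were seen, for their spread. It was at 119, 153 and 178 CPM in CONT and at 90.2, 235 and 276 in ET. ET 1 was the lowest and ET 2 and ET 3 the highest of the 6 libraries. The log2 fold change was 0.42 ± 0.40 (adjusted p 0.742 by edgeR), with -0.58 in set 1 and 0.52 in set 2. With CONT 3 and ET 1 both left out it was 0.93 (adjusted p 0.0372 by edgeR), and without ET 1 it was 0.79 by DESeq2 (adjusted p 0.0209, with 2.79% of genes called).

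The chaperones of the core, Psmg1 to Psmg4, pair the alpha subunits into the first ring. All 4 were lower in ET, at -0.31 to -0.23, and in mean TPM as well, and none passed. Psmg2 was at 15.0, 15.7 and 13.5 CPM in CONT and at 9.31, 11.9 and 14.5 in ET, where ET 3 exceeded CONT 3. Psmg2 had a log2 fold change of -0.31 ± 0.18, with -0.72 in set 1 and -0.04 in set 2. It was -0.14 without ET 1, -0.47 without ET 3 and -0.13 on log2(TPM + 1). Psmg1 was at 11.1, 11.7 and 10.2 CPM in CONT and at 8.05, 8.91 and 10.6 in ET. It was at -0.26 ± 0.15 (adjusted p 0.624 by edgeR, as for Psmg2), with -0.50 in set 1 and -0.06 in set 2. Without ET 1 it was -0.15, and on log2(TPM + 1) it was -0.097. The 3 chaperones that assemble the 19S base lay near 0. Psmd9 was at 12.9, 12.8 and 12.2 CPM in CONT and at 12.8, 11.99 and 15.8 in ET (0.10 ± 0.14, with -0.01 in set 1 and 0.17 in set 2). It was -0.03 without ET 3 and 0.22 on log2(TPM + 1). Psmd10, gankyrin, was at 6.16, 6.07 and 5.59 CPM in CONT and at 5.84, 4.53 and 6.41 in ET (-0.09 ± 0.18, with -0.07 in set 1 and -0.05 in set 2). It was 0.042 without ET 2 and -0.20 without ET 3. Psmd9 has 25.5% of its exon bases under Gm26745 on the opposite strand, a gene with at most 5.83 expected counts.

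The 3 subunits left out by the rule replace the catalytic beta genes when interferon gamma induces the immunoproteasome, and their fitted values were below 0 as those of PA28 were. Psmb10 was at 32.2, 35.2 and 22.9 CPM in CONT and at 18.0, 16.8 and 16.99 in ET. Its groups did not overlap and the ET libraries nearly coincided. The log2 fold change was -0.80 ± 0.18, with an adjusted p of 0.452 by edgeR and 0.0267 by DESeq2, and -0.91 in set 1 and -0.44 in set 2. Psmb9 was at 9.28, 12.5 and 4.70 CPM in CONT and at 4.67, 4.23 and 3.19 in ET (-1.13 ± 0.36, adjusted p 0.515 by edgeR), where CONT 3 nearly met ET 1. Within the sets it was at -1.205 and -0.36. In TPM the groups of Psmb9 overlapped, with ET 1 at 5.01 and CONT 3 at 4.31, whereas those of Psmb10 did not. Psmb8 was at 18.6, 24.6 and 11.1 CPM in CONT and at 12.6, 9.67 and 7.03 in ET (-0.89 ± 0.33, adjusted p 0.533 by edgeR), and its groups overlapped. Within the sets it was at -0.77 and -0.43. Of its exon bases 14.7% overlap a gene on the opposite strand.

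**Figure D5:**
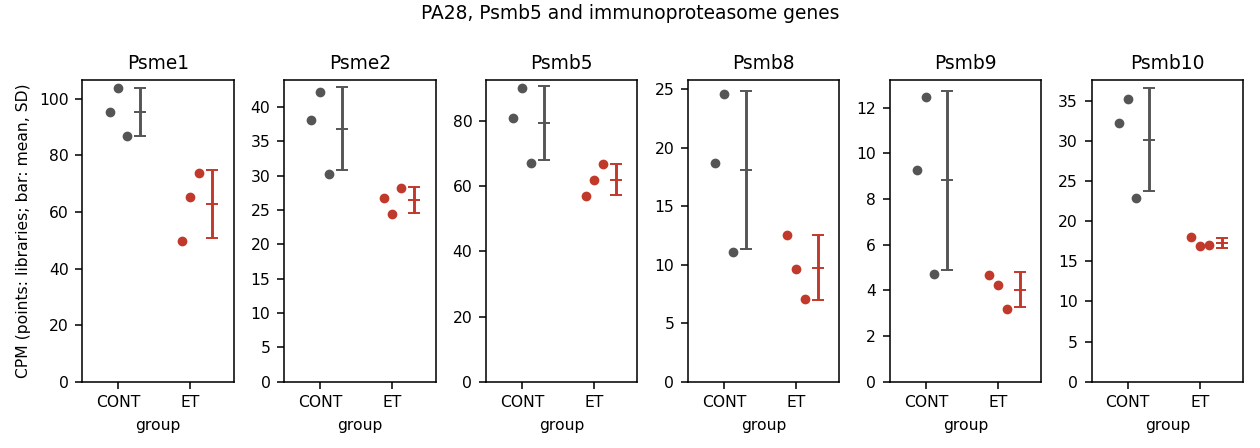
CPM of Psme1, Psme2, Psmb5, Psmb8, Psmb9 and Psmb10 in each library, with a point per library and the mean and SD of each group, on axes that start at 0. On this CPM scale the ET points lie below all CONT points for Psme1, Psme2, Psmb5, Psmb9 and Psmb10, and overlap for Psmb8.

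Genes of the interferon response were mostly lower in ET as well. Of 15 such genes, 13 had a fold change below 0 and 0 passed (0.0% of genes), with a median of -0.45. Their summed level was 230, 370.0 and 155 CPM in CONT and 198, 207 and 123 in ET, none at 0, and the groups overlapped. Like Psmb8 and Psmb9, this sum was highest in CONT 2 and low in CONT 3. Endothelial markers were mostly lower too, with CONT 3 again the lowest of the CONT libraries: 6 of 8 had a fold change below 0 (median -0.29), and they summed to 1463, 1351 and 858 CPM in CONT and 1181, 1138 and 859 in ET, with none at 0. The part of the interferon response and of endothelial cells in the values of PA28 and the immunoproteasome genes was not tested. The letters of the interferon-stimulated response element (GAAA, any 2 bases, GAAA, on either strand) were in the windows of 5 members, Psmb3, Psmd4, Psmd9, Psme1 and Psmg4, which is 12.5% of member windows and 3.44% of all windows. In Psme1 the match read TTTCGCTTTC from position 10 after the start site. The windows of Psme2, Psmb8, Psmb9 and Psmb10 held no match to this element. The letters of the gamma-activated site (TTCNNNGAA) were in 5.0% of member windows and 8.3% of all, and those of the CCAAT box in 32.5% and 37.4%. Among the carriers of the response element, Psmb3 was at -0.22 ± 0.14 (SE), Psmd4 at 0.20 ± 0.19 and Psmd9 at 0.10 ± 0.14. Psme1 was at -0.60 ± 0.18 and Psmg4 at -0.26 ± 0.22. None of them passed edgeR's test, and the part of the element in these values was not tested.

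Other parts of the pathway were read from lists, and none of the genes in them passed edgeR's test. Partners and cofactors of the proteasome numbered 11, with 8 above 0 and 3 below (median 0.07). The lowest p was that of Sem1, the smallest lid subunit, at 126, 128 and 98.0 CPM in CONT and at 99.9, 96.6 and 93.1 in ET (-0.28 ± 0.16). Pomp, the chaperone that matures the core, was at 58.8, 65.9 and 50.1 CPM in CONT and at 48.9, 49.4 and 53.4 in ET (-0.21 ± 0.15). Shuttle factors and the Vcp unfoldase, which bring ubiquitinated proteins to the particle, numbered 12, with 10 above 0 and 2 below (median 0.13). Ubqln2, a shuttle with a ubiquitin-like domain, was at 15.9, 15.5 and 20.2 CPM in CONT and at 19.9, 20.5 and 25.2 in ET (0.35 ± 0.16). Nploc4, a Vcp cofactor, was at 0.44 ± 0.26, with CONT at 34.0, 37.9 and 47.8 CPM and ET at 35.8, 58.0 and 68.4.

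Ubb, a polyubiquitin gene named for its groups without overlap, was at 651, 696 and 554 CPM in CONT and at 710, 705 and 860.2 in ET (0.26 ± 0.19, adjusted p 0.679 by edgeR). Of 8 regulators of proteasome genes 5 were above 0 (median 0.20). Ngly1, the enzyme that activates Nrf1 by removing its sugars, was at 13.6, 16.1 and 18.9 CPM in CONT and at 16.5, 22.8 and 25.8 in ET (0.42 ± 0.20). Nfyc, a subunit of the CCAAT-binding factor, was at 35.0, 36.4 and 37.1 CPM in CONT and at 29.4, 32.6 and 30.5 in ET, without overlap (-0.23 ± 0.11). Nfe2l1 itself, given because antioxidant response elements are named above as its route, was at 270.3, 282 and 337 CPM in CONT and at 221, 384 and 480 in ET. Its log2 fold change was 0.29 ± 0.30, with -0.32 in set 1 and 0.35 in set 2, and ET 1 was the lowest library and ET 3 the highest. Which factor binds the printed elements was not tested.

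The transcript forms counted for the members did not separate the groups. Effective lengths did not overlap between ET and CONT for 0 of 43 members with enough counts (12.5% of 9992 genes). They did not overlap between the library sets for 12 of the 43 (22.8% of genes, the values that defined the sets). Psmd2, a scaffold of the base that binds ubiquitin receptors, was the clearest case, chosen after its values were seen: its effective length was 1735, 1733 and 1813 bases in CONT 1, CONT 2 and ET 1 and 2138, 2265 and 2346 bases in CONT 3, ET 2 and ET 3. Its log2 fold change was 0.23 ± 0.26. Of the core genes, Psma5 shares 35.2% of its 75-base stretches with other genes, Psma3 14.3% and Psmb3 10.3%, so that some of their reads are ambiguous. These shares are not the error of a value. Psma5 held 801 to 957 expected counts per library. Its look-alikes Gm8394 and Gm12989 had means of 27.85 and 35.08 in CONT and 19.87 and 21.05 in ET. Psma3 held 1666 to 2162, and its look-alike Gm13835 had means of 197.82 in CONT and 246.67 in ET.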

How the data were processed

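Bulk RNA libraries of left ventricle (NuGEN Universal mRNA Plus, paired reads of 75 bases, per the labels' protocols) were compared, with 3 libraries in each of 2 groups. The submitters' processing notes name STAR 2.7.0f, RSEM 1.2.31 and the mm10 build. Which annotation was used, and whether counting was stranded, is not given in the sources used here. The authors deposited expected counts, estimated per gene and not normalized, of which 65.7% to 67.3% of the nonzero values were whole within 0.005. They also deposited TPM and FPKM values per library, per the file headers.

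Counts were rounded and filtered with filterByExpr (minimum count 10, total 15). They were scaled with TMM factors (0.920 to 1.19) and tested with edgeR 4.0.16 (robust quasi-likelihood test, two-sided, Benjamini-Hochberg over 15727 genes, threshold 0.05, no covariate) in R 4.3.3. The common biological coefficient of variation was 0.297. DESeq2 1.42.0, limma 3.58.1, other factors and filters, TPM with a pseudocount of 1 or 0.1, a library-set term and fits without single libraries were alternatives. Effective length was expected counts over FPKM, scaled by the library total. The tests were tried on simulated data.

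Positions, exon overlap and shared 75-base stretches come from GENCODE vM21 (GRCm38), which held 55394 of the 55487 IDs. Promoter windows come from RefSeq (GRCm38.p6).

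Members, role groups and lists were chosen with earlier results of these data known. Values in every library are given for Psmb5, Psmb6 and Psmb7 and for the 2 genes of lowest p in each role group. They are also given for genes at 0, for the immunoproteasome, and for the 2 genes of lowest p of each other list described; some results of the lists are not reported here. Psmb11, Psme4, Psmd2, Ubb and Nfe2l1 are named with reasons in the text. The limit for a gene at 0 covers counting error only, whereas SDs and SEs hold the spread among libraries.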

Additional observations from a re-analysis of the deposited data

How the results depend on the processing

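With TMM, RLE or upper-quartile factors, library totals, other filters, limma-voom, removal of mitochondrially encoded or the 10 most abundant genes, a library-set term or a threshold of 0.10, edgeR and limma called 0 members and 0 genes. Leaving out each library in turn, edgeR again called 0 to 0 genes and 0 to 0 members. Over all genes, DESeq2 called 184 and limma-trend on log2(TPM + 0.1) called 2. DESeq2 called 21, 38 and 437 without CONT 1, 2 and 3, and 405, 212 and 197 without ET 1, 2 and 3. Of these calls 1, 2 and 1 were members, without CONT 3 (Psme2), ET 1 (Psmd11 and Psme4) and ET 3 (Psme1), where 2.86%, 2.79% and 1.31% of genes were called. With CONT 3 and ET 1 left out together edgeR called 828 genes and 3 members. DESeq2 without single libraries, the counts of members at an unadjusted p or without overlap, and the medians of core and 19S genes were chosen after seeing the data.

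The median over the members was -0.04, -0.12 to 0.09 without single libraries, and 0.13 and 0.14 on log2(TPM + 1) and log2(TPM + 0.1).

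Of 375 values of 15 named members under 25 alternatives 358 kept direction and call, 5 became calls and 12 changed sign, none of these past the threshold. Psma2 was at 0.00264 and 0.00266 on the TPM scales. Psmc6 was at -0.022 with a library-set term. Without single libraries Psmc1 ran from -0.032 (without ET 3, -0.018 by DESeq2) to 0.37, and Psmd9 from -0.031 (without ET 3, -0.018 by DESeq2) to 0.18. Psmd10 ran from -0.20 to 0.042 (without ET 2, 0.062 by DESeq2), and was at 0.020 by library totals and 0.074 and 0.086 on the TPM scales. The cause was not tested. Psma8 had the least depth of the tested members, at 10 to 22 expected counts per library, and its log2 fold change of 0.39 had an SE of 0.38. No paired analysis was possible because the labels carry no replicate numbers, and the numbers used here only name the libraries in order of deposit.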
